A study of Mus musculus with 22 samples.

Results

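The interferon-induced GTPases described here are 10 genes of the guanylate-binding protein (GBP) and immunity-related GTPase (IRG) families, taken by symbol from the 24475 genes of the deposited liver table: Gbp2, Gbp3, Gbp6, Gbp7, Gbp10, Irgm1, Irgm2, Igtp, Iigp1 and Tgtp1. They were chosen with earlier results of these data known. Their shares beside those of all genes are therefore descriptions and not independent tests. Both families are large GTPases that cells make in quantity when interferon binds its receptor, and they are best known in mice for attacking the vacuoles in which intracellular parasites and bacteria live. IRG proteins divide into effectors, which load onto the vacuole, and regulators (the Irgm proteins), which hold the effectors inactive on the cell's own membranes. In the liver, interferon induces them in hepatocytes as well as in macrophages and endothelium, and mouse liver without infection keeps a resting level of several of them.

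The study measured liver mRNA in 22 libraries and asked how glucagon, the pancreatic hormone that acts on hepatocytes, contributes to liver zonation. Mice lacking the glucagon gene (Gcg-/-) gave 3 libraries without infusion, 4 with glucagon infused at 30 µg/d and 4 at 150 µg/d, and wild-type (WT) mice gave 3, 4 and 4 libraries in the same arrangement. All 22 come from whole liver. The labels give no strain, age, sex, route or length of infusion, and name no vehicle for the uninfused groups. Nor do they tie each library to a mouse of its own, so a p-value here reflects library-to-library spread, part of which may be technical. The Gcg-/- allele removes every peptide made from proglucagon, not glucagon alone.

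Levels are given as RPKM, which scales reads to transcript length and to the size of the library. The estimated depth was 11.21 to 17.85 M reads per library, at which 1 read on a transcript of 1 kb is worth 0.0560 to 0.0892 RPKM, so all 10 genes stood above the level of single reads in every library. The hepatocyte marker sum was 33823 to 74963 RPKM in every library, which fits the tissue label. Gcg was listed at 0 in all 22 livers, WT included, so it does not check the genotype labels. Libraries 4 (Gcg-/-, uninfused) and 13 (Gcg-/-, 30 µg/d) stood apart in sex-biased genes: Cyp2b9, a female-biased cytochrome, was at 111 and 42.9 RPKM in them and at 1.61 or less in the other 20. In genes of the sex chromosomes these libraries did not stand apart. The Y-linked Ddx3y was at 13.96 and 14.52 RPKM in libraries 4 and 13, and at 8.04 RPKM or more in all 22. The Y-linked Eif2s3y was at 26.04 and 23.99 RPKM in them, and at 13.09 RPKM or more in all 22. Xist, an X-linked gene expressed in female cells, was at 0.0301 RPKM or less in all 22, so every library read as male. Calls in comparisons that use libraries 4 and 13 are given both ways.

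The start regions are shown because interferon-response elements lie there in many of these genes. RefSeq windows on GRCm38.p6, running from 250 bases before to 50 bases after each annotated start, were matched for 7 of the 10 genes (8 windows, since Gbp3 has 2) and not for Gbp6, Gbp10 and Iigp1. Each was searched on both strands for the interferon-stimulated response element, ISRE, searched as GAAA, any 2 bases and GAAA again, which interferon regulatory factors bind, and for the gamma-activated site, GAS, searched as TTCNNNGAA with N for any base, an element known from genes that interferon gamma induces. The stretches below are 60 bases around the ISRE match, written along the gene's strand from 5′ to 3′, with ISRE and GAS matches in capitals. Those of the GBP genes lie on the plus strand of chromosome 3.
Gbp7 (chr3:142530258-142530317): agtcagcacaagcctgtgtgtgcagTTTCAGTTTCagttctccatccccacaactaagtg
Gbp3 (chr3:142559974-142560033): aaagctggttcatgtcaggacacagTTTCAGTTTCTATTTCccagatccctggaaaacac
Gbp2 (chr3:142620579-142620638): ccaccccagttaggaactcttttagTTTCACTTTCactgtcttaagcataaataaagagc
Those of the IRG genes lie on chromosome 11, Irgm1 and Tgtp1 on the minus strand and Igtp and Irgm2 on the plus strand.
Irgm1 (chr11:48871416-48871475): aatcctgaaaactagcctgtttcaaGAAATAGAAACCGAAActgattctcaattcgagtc
Tgtp1 (chr11:48992289-48992348): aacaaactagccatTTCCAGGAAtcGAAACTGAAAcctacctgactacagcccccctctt
Igtp (chr11:58199497-58199556): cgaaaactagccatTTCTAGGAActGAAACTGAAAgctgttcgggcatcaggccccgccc
Irgm2 (chr11:58214888-58214947): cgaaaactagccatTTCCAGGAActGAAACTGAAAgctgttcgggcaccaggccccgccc

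All 7 genes held an ISRE match, in 7 of the 8 windows and always within 100 bases before the start. Across all 32851 windows of that table, 3.44% held an ISRE match anywhere and 0.983% held one in those 100 bases. In Gbp3 and Irgm1 a pair of ISRE matches overlaps into 1 longer run. In the 3 GBP genes the match reads TTTC on the gene's strand, and in the 4 IRG genes it reads GAAA. GAS matches stood in 4 of the 8 windows, against 8.30% of all windows, and in Tgtp1, Igtp and Irgm2 the GAS was followed by the ISRE with 2 bases between them. A GAS and an ISRE spaced that way occurred in 5 of the 32851 windows, the other 2 being those of Tgtp2 and Gm12185. This spacing was noticed in the data, and several of these genes are copies of one another, as the near-identical Igtp and Irgm2 stretches show. A match describes letters only, and binding was not measured here.

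**Figure D1:**
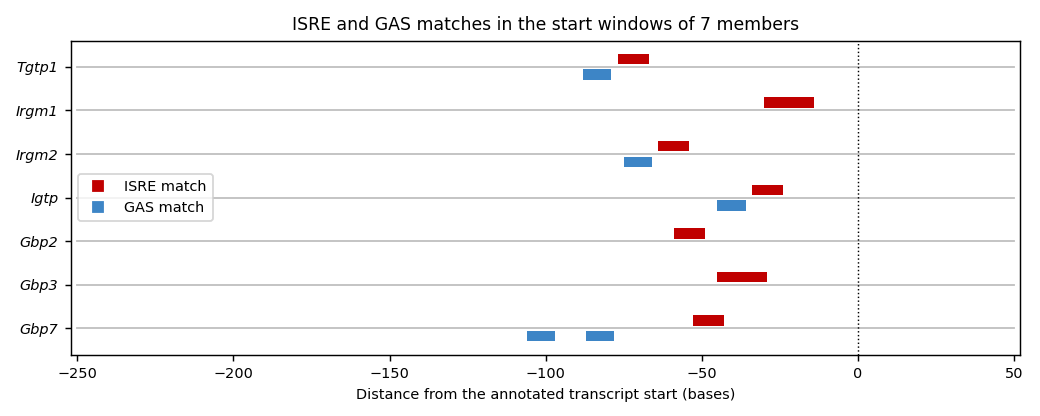
Positions of ISRE (red, above the line) and GAS (blue, below the line) matches in the start windows of 7 of the 10 genes, in bases from the annotated transcript start (dotted line at 0). The ISRE match lies within 100 bases before the start in all 7, and GAS matches lie just upstream of it in Tgtp1, Irgm2 and Igtp.

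The 10 genes are protein coding and lie on 4 chromosomes of GRCm38. Gbp7, Gbp3 and Gbp2 are neighbours on chromosome 3 (142530336 to 142638008), Gbp10 and Gbp6 on chromosome 5 (105215699 to 105295871), Irgm1 and Tgtp1 (48865245 to 48992246) and Igtp and Irgm2 (58199556 to 58222783) on chromosome 11, and Iigp1 on chromosome 18 (60373616 to 60392634). Some share much of their sequence, and the sources used here do not give how the authors' counting treated shared reads. Of the 50-base windows of Gbp10 transcripts, 73.3% also occur in Gbp6, and 45.9% of those of Gbp6 occur in Gbp10. Tgtp1 shares 79.4% of its windows with Tgtp2, its tandem copy, while Igtp shares 11.8% with Irgm2, Iigp1 shares 1.47% with Gm4951 and Irgm1 shares none with any of the other GTPase genes examined. The Gbp6, Gbp10 and Tgtp1 values are therefore uncertain as values of single genes.

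On RPKM, a scale per length, Iigp1 was the most abundant of the 10 by far. Iigp1 (Irga6), an IRG effector that loads early onto parasite vacuoles, averaged 93.5 RPKM over the 22 livers, above 97.1% of all genes in the table. The regulators followed, with Irgm1 at 19.2, Irgm2 at 13.8 and Igtp (Irgm3) at 10.9 RPKM. The other 6 lay between 2.33 RPKM (Gbp2) and 4.04 RPKM (Gbp7), still above 65.0% of all genes. All 10 passed the filter of a mean of 0.5 RPKM over the 22 libraries. Across single libraries the widest ratio of highest to lowest value was 6.23 for Tgtp1 and 5.38 for Gbp10, and the narrowest was 1.77 for Igtp.

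**Figure D2:**
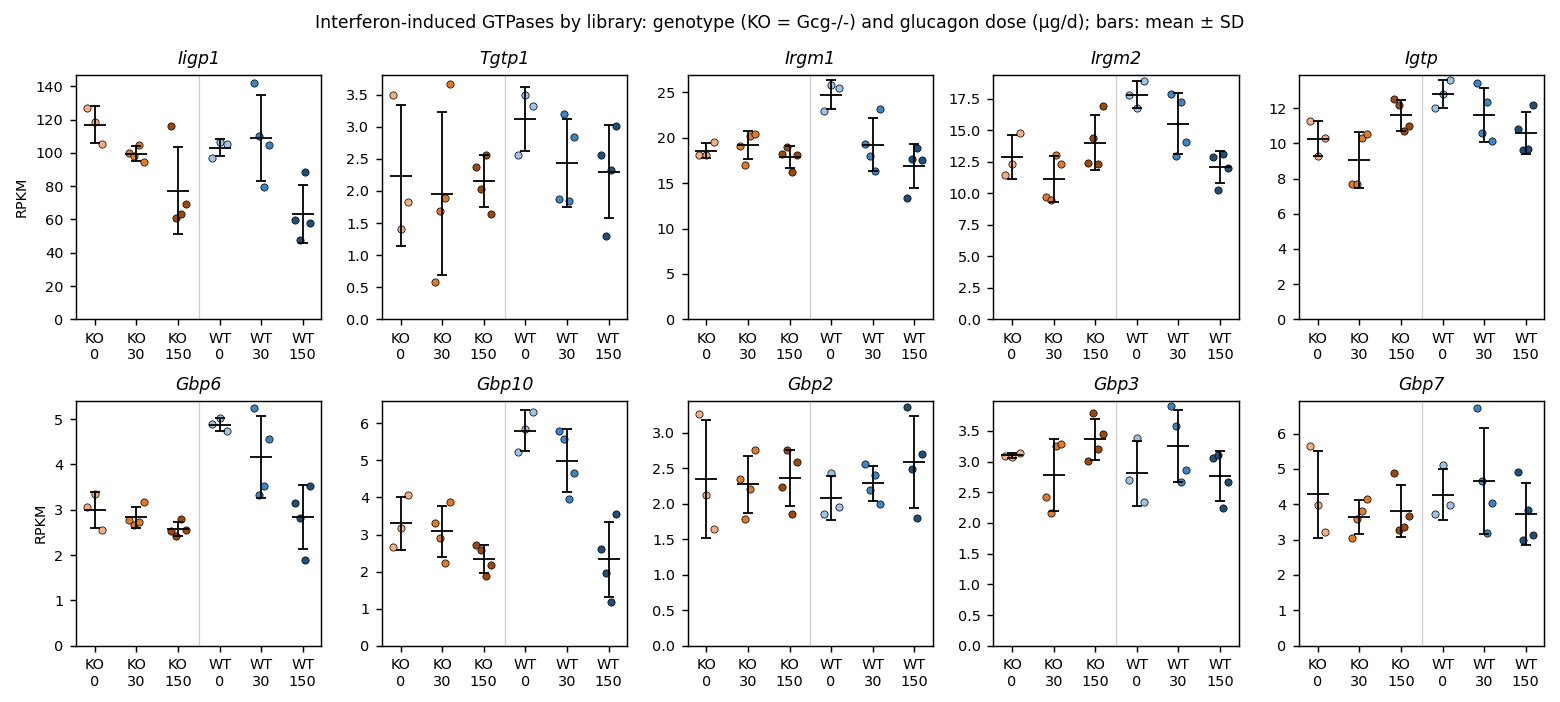
RPKM of each gene in each library (points) with group mean and SD (bars), for Gcg-/- (KO, left of the grey line) and WT livers by glucagon dose in µg/d; every axis starts at 0. Group means of Gbp6, Gbp10 and Irgm1 are highest in uninfused WT livers, each of which is above all 11 Gcg-/- livers, and the group mean of Iigp1 is lowest at 150 µg/d within each genotype, with 1 Gcg-/- library there at 116 RPKM.

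Between uninfused Gcg-/- and uninfused WT livers, Gbp6 was lower in Gcg-/- and was the 1 gene to pass the test, while Gbp10 and the 3 regulators had every Gcg-/- value below every WT value without passing. Gbp6, a guanylate-binding protein of the chromosome 5 cluster, was at 3.06, 3.34 and 2.56 RPKM in the 3 uninfused Gcg-/- livers and at 4.88, 5.02 and 4.74 RPKM in the 3 uninfused WT livers. The highest Gcg-/- value lay well below the lowest WT value. Its log2 fold change, on log2(RPKM + 1) as for every fold change here, was -0.57 ± 0.14 (SE), and it was called lower by limma with a Benjamini-Hochberg adjusted p of 0.0489, where a call means an adjusted p under 0.05 over all 11590 genes tested. Gbp6 was thus 1 of 10 genes called, against 1.54% of all genes called in either direction and 0.751% called lower. The call is at the edge of the threshold: it ended when any 1 of the 6 libraries was left out and without libraries 4 and 13 (log2 fold change -0.58, limma adjusted p = 0.143).

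Gbp10, next to Gbp6 on the chromosome, had 2.65, 3.18 and 4.06 RPKM in uninfused Gcg-/- livers and 5.22, 5.86 and 6.32 RPKM in uninfused WT livers. The groups do not overlap, and the fold change of -0.67 ± 0.21 did not pass (limma adjusted p = 0.102). With the Gbp6 and Gbp10 values summed, a choice made after seeing the data, the fold change was -0.68 (limma adjusted p = 0.0551).

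Irgm1, the regulator whose loss exposes mice to many intracellular infections, was at 18.1, 18.1 and 19.5 RPKM in uninfused Gcg-/- livers against 22.9, 25.8 and 25.5 RPKM in uninfused WT livers (log2 fold change -0.39 ± 0.12, limma adjusted p = 0.0996). Irgm2, a second regulator, was at 11.5, 12.3 and 14.8 RPKM in Gcg-/- and 17.8, 16.8 and 18.9 RPKM in WT (-0.45 ± 0.15, limma adjusted p = 0.119). Igtp, the third regulator, was at 11.2, 9.25 and 10.3 RPKM in Gcg-/- and 11.99, 12.8 and 13.6 RPKM in WT (-0.29 ± 0.13, limma adjusted p = 0.230). With Gbp6 and Gbp10 that makes 5 of 10 genes whose groups did not overlap with Gcg-/- lower, against 11.6% of all genes tested. Gbp6 and Gbp10 share much of their sequence and may not count as separate genes here. Without libraries 4 and 13 the fold changes were -0.56 for Gbp10 (limma adjusted p = 0.291), -0.38 for Irgm1 (0.256), -0.38 for Irgm2 (0.328) and -0.36 for Igtp (0.279), while over all genes the calls dropped to 22, against 179 with them.

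The effectors and the chromosome 3 GBPs had overlapping groups. Iigp1 was at 127, 119 and 105 RPKM in uninfused Gcg-/- livers and at 97.2, 107 and 105 RPKM in uninfused WT livers. Tgtp1, another IRG effector, was at 3.49, 1.40 and 1.83 RPKM in Gcg-/- and 2.56, 3.50 and 3.32 RPKM in WT. The Gcg-/- value among the WT values is that of library 4, and the other 2 lie below every WT value. The fold change was -0.39 with all libraries (limma adjusted p = 0.521) and -0.66 without libraries 4 and 13 (0.389). Gbp2, Gbp3 and Gbp7, guanylate-binding proteins that are recruited to parasite vacuoles in mouse cells, averaged 2.34 ± 0.831, 3.10 ± 0.0360 and 4.28 ± 1.24 RPKM in Gcg-/- against 2.08 ± 0.310, 2.81 ± 0.532 and 4.27 ± 0.729 RPKM in WT (SD, n = 3 each). The median log2 fold change of the 10 genes was -0.34, with 7 of 10 below 0, and that of all genes tested was 0.01, with 47.9% below 0.

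In WT livers given 150 µg/d, 3 of the 10 genes were called lower than in uninfused WT livers: Gbp10, Gbp6 and Irgm1. Across all genes the test called 0.293% in either direction and 0.207% lower, so these are 3 of the 24 genes called lower in this comparison, beside 10 called higher. That split depends on the scaling: it was 13 lower and 12 higher with median-of-ratios scaling, and 5 lower and 8 higher with all libraries set to 1 RPKM sum. Gbp10 fell furthest: it was at 2.62, 1.97, 1.17 and 3.56 RPKM in the 4 infused WT livers and at 5.22, 5.86 and 6.32 RPKM in the 3 uninfused ones (log2 fold change -1.08 ± 0.19, limma adjusted p = 0.0278). Gbp6 was at 3.14, 2.81, 1.89 and 3.52 RPKM in infused WT livers and at 4.88, 5.02 and 4.74 RPKM in uninfused ones (-0.63 ± 0.13, limma adjusted p = 0.0456). Irgm1 was at 13.3, 17.6, 18.9 and 17.5 RPKM in infused WT livers and at 22.9, 25.8 and 25.5 RPKM in uninfused ones (-0.54 ± 0.11, limma adjusted p = 0.0456). All 4 infused livers were below all 3 uninfused livers in each of these 3 genes.

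These calls depend on which libraries enter. With libraries 4 and 13 left out, which are in neither WT group and enter through the shared estimate of spread, Gbp10 was still called (limma adjusted p = 0.0201), while Gbp6 (0.0523) and Irgm1 (0.0513) just missed. With any 1 of the 3 uninfused WT libraries or library 15 or 16 left out, 0 of the 10 were called. With Gbp6 and Gbp10 summed, the fold change was -0.96 (limma adjusted p = 0.0199).

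Among the others, Irgm2 and Iigp1 also had groups that did not overlap, making 5 of 10 genes, with Gbp6 and Gbp10 counted apart, against 9.18% of all genes. Irgm2 was at 12.9, 10.3, 13.1 and 12.02 RPKM in WT livers given 150 µg/d and at 17.8, 16.8 and 18.9 RPKM in uninfused WT livers (-0.53 ± 0.14, limma adjusted p = 0.104). Iigp1 was at 59.6, 47.8, 88.3 and 58.1 RPKM in WT livers given 150 µg/d and at 97.2, 107 and 105 RPKM in uninfused WT livers (-0.73 ± 0.21, limma adjusted p = 0.159). The mean of Igtp was 10.6 ± 1.20 RPKM in infused and 12.8 ± 0.798 RPKM in uninfused WT livers, and that of Tgtp1 was 2.30 ± 0.724 and 3.13 ± 0.498 RPKM (SD, n = 4 and 3). Gbp2 was the 1 gene with a fold change above 0, at 0.20 (limma adjusted p = 0.631). The median log2 fold change of the 10 genes was -0.44, against -0.02 over all genes tested. This comparison and that of Gcg-/- with WT share the same 3 uninfused WT libraries.

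**Figure D3:**
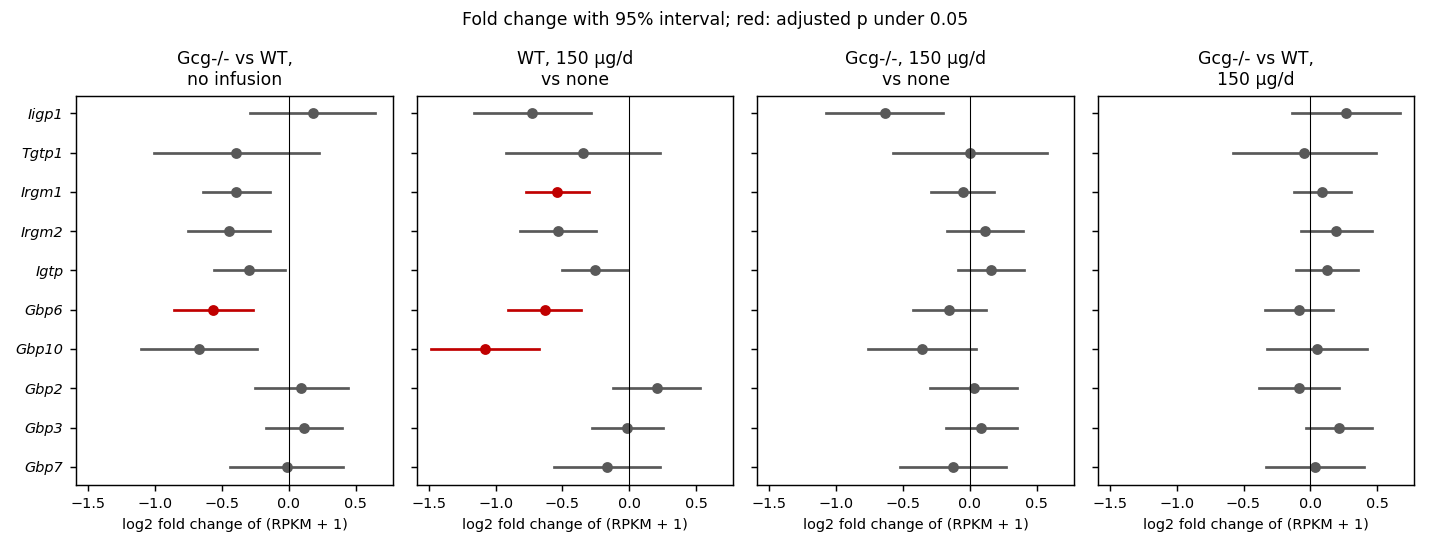
Log2 fold change of RPKM + 1 with its 95% interval (limma) for each gene in 4 comparisons; red marks an adjusted p under 0.05 and the vertical line is no difference. Gbp6 is called lower in uninfused Gcg-/- against WT, Gbp10, Gbp6 and Irgm1 are called lower in WT at 150 µg/d against none, and no gene is called in the other 2 panels.

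At 30 µg/d the WT means of Gbp10, Gbp6, Irgm1 and Irgm2 lay between those at the other doses, while those of Iigp1, Gbp3 and Gbp7 were the highest of the 3. No gene of the 11590 was called in WT livers at this dose against none by limma (0%), while 657 had an unadjusted p under 0.05. Gbp10 averaged 5.80 ± 0.549, 4.99 ± 0.853 and 2.33 ± 1.01 RPKM in WT livers at 0, 30 and 150 µg/d (SD, n = 3, 4 and 4), and Gbp6 averaged 4.88 ± 0.137, 4.16 ± 0.898 and 2.84 ± 0.701 RPKM. Irgm1 averaged 24.7 ± 1.58, 19.2 ± 2.90 and 16.8 ± 2.42 RPKM across the same doses, and Irgm2 17.8 ± 1.08, 15.5 ± 2.40 and 12.1 ± 1.28 RPKM. Between 150 and 30 µg/d in WT, Gbp10 had groups that did not overlap, at 2.62, 1.97, 1.17 and 3.56 RPKM for 150 µg/d and 5.78, 5.59, 3.95 and 4.66 RPKM for 30 µg/d (-0.89 ± 0.18, limma adjusted p = 0.0914). It was 1 of 10 genes apart in that direction, against 2.21% of all genes, and 0 of 10 were called, against 0.00863%.

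In Gcg-/- livers most of the 10 genes differed little between doses. The test called 0 of 10 at 150 µg/d against none, against 2.72% of all genes, and 0 of 10 at 30 µg/d against none, against 0.0863%. Gbp6 averaged 2.99 ± 0.398, 2.83 ± 0.228 and 2.58 ± 0.153 RPKM in Gcg-/- livers at 0, 30 and 150 µg/d (SD, n = 3, 4 and 4), and Gbp10 averaged 3.30 ± 0.712, 3.09 ± 0.689 and 2.34 ± 0.383 RPKM. Irgm1 averaged 18.6 ± 0.841, 19.2 ± 1.56 and 17.9 ± 1.17 RPKM across these doses, the largest of the 3 means being less than 1 SD of its group above the next. Igtp was at 12.5, 12.2, 10.7 and 10.99 RPKM at 150 µg/d and at 7.67, 7.68, 10.3 and 10.5 RPKM at 30 µg/d, without overlap but not called (0.34 ± 0.11, limma adjusted p = 0.178). It was the 1 gene of 10 apart and higher there, against 2.66% of all genes, with 0 of 10 called against 0.544%.

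Iigp1 had the largest fold change of the 10 genes in Gcg-/- livers at 150 µg/d against none. It was at 116, 60.7, 63.2 and 69.6 RPKM in the 4 livers given 150 µg/d and at 127, 119 and 105 RPKM in the 3 uninfused ones. Library 19, at 116 RPKM, lies inside the uninfused range and the other 3 lie far below it. The fold change was -0.64 ± 0.21 (limma adjusted p = 0.107), and without library 19 it was -0.85 and called (limma adjusted p = 0.0128), with a mean of 64.5 ± 4.59 RPKM in the remaining 3. Library 19 was singled out here for its Iigp1 value. Leaving it out also raised the calls over all genes, from 315 of 11590 to 586 of 11595. Without libraries 4 and 13 the fold change of Iigp1 was -0.58 (limma adjusted p = 0.307). At 30 µg/d Iigp1 was at 100, 98.2, 105 and 94.2 RPKM, all 4 just below the uninfused livers (-0.23, limma adjusted p = 0.732), which makes 1 of 10 genes apart and lower against 5.58% of all genes.

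Taken as the mean of both genotypes, a comparison added after seeing the data, 4 of the 10 genes were called lower at 150 µg/d than without infusion. Across all genes 4.52% were called in either direction and 2.67% lower. Gbp10 had a log2 fold change of -0.72 ± 0.14 (limma adjusted p = 0.00836), Iigp1 of -0.68 ± 0.15 (0.0136), Gbp6 of -0.39 ± 0.09 (0.0212) and Irgm1 of -0.30 ± 0.08 (0.0391). In the same order, the fold changes were -0.36, -0.64, -0.15 and -0.05 in Gcg-/- alone and -1.08, -0.73, -0.63 and -0.54 in WT alone. For Gbp10, Gbp6 and Irgm1 the mean of both genotypes rests mostly on the WT livers. In Gcg-/- alone the Gbp10 groups overlapped (limma adjusted p = 0.334). Gbp10 and Iigp1 were called under every one of the 25 and 26 alternatives run for them, Gbp6 under 23 of 26 and Irgm1 under 11 of 26. Without libraries 4 and 13 Gbp10 (limma adjusted p = 0.00820), Iigp1 (0.0348) and Gbp6 (0.0492) were called and Irgm1 (0.0638) was not. Of 12 acute-phase genes, which the liver makes in inflammation, only Orm2, an orosomucoid, was called at this dose against none. It was higher in the mean of both genotypes (2.93 ± 0.76, limma adjusted p = 0.0346, or 0.0848 without libraries 4 and 13). In Gcg-/- alone it was also higher (4.01 ± 1.07, limma adjusted p = 0.0494, or 0.202 without them). Over all genes 4.52% and 2.72% were called in those comparisons. The sum of 12 acute-phase genes was 5120 to 29931 RPKM in Gcg-/- and 6537 to 32047 RPKM in WT livers at 150 µg/d, against 4188 to 7328 RPKM in uninfused Gcg-/- and 4499 to 12840 RPKM in uninfused WT livers. These ranges overlap in both genotypes, and WT livers at 30 µg/d reached 18508 RPKM. Within each genotype at 150 µg/d the library with the highest sum, 19 in Gcg-/- and 17 in WT, also had the highest Iigp1. That match did not hold in the other groups. Without infusion the library with the highest sum, 6 in Gcg-/- and 1 in WT, had the lowest Iigp1 of its group. At 30 µg/d the library with the highest sum, 11 in Gcg-/- and 10 in WT, did not have the highest Iigp1. The part of the acute-phase genes in these results was not tested. Irgm2 (-0.21 ± 0.10, limma adjusted p = 0.237) and the remaining 5 genes were not called.

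At 150 µg/d, unlike without infusion, the genotypes overlapped in all 10 genes. At 150 µg/d Gbp6 was at 2.58 ± 0.153 RPKM in Gcg-/- and 2.84 ± 0.701 RPKM in WT livers, Gbp10 at 2.34 ± 0.383 and 2.33 ± 1.01 RPKM, and Irgm1 at 17.9 ± 1.17 and 16.8 ± 2.42 RPKM (SD, n = 4 each). None was called or apart, against 0.0259% of all genes called, 0.708% apart with Gcg-/- lower and 0.777% apart with Gcg-/- higher, and 231 of 11590 had an unadjusted p under 0.05 by limma. The 95% intervals of the Gcg-/- minus WT log2 difference ran from -0.34 to 0.17 for Gbp6, from -0.33 to 0.42 for Gbp10 and from -0.13 to 0.31 for Irgm1, so differences within those bounds are not excluded. At 30 µg/d Gbp6 was at 2.77, 2.67, 2.72 and 3.17 RPKM in Gcg-/- livers and at 5.24, 3.32, 3.53 and 4.56 RPKM in WT livers (-0.42 ± 0.12, limma adjusted p = 0.160). Gbp10 was at 3.31, 2.92, 2.24 and 3.88 RPKM in Gcg-/- livers and at 5.78, 5.59, 3.95 and 4.66 RPKM in WT livers at that dose (-0.56 ± 0.18, limma adjusted p = 0.194). They were the 2 of 10 genes apart at 30 µg/d, against 3.51% of all genes lower without overlap, and 0 of 10 were called, against 0.328%.

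Whether the response itself differed between genotypes was tested as the response to 150 µg/d in Gcg-/- minus that in WT. It was 0.64 (95% interval 0.24 to 1.05) for Irgm2, 0.72 (0.15 to 1.29) for Gbp10, 0.48 (0.15 to 0.82) for Irgm1, 0.48 (0.09 to 0.87) for Gbp6 and 0.42 (0.07 to 0.77) for Igtp, on the log2 scale. A value above 0 means that the gene went down less in Gcg-/- livers or did not go down. The smallest limma adjusted p among them was 0.262 (Irgm2), and over all 11590 genes limma called 0 (0%), with 1187 at an unadjusted p under 0.05. The difference of responses was therefore not established for any gene. For Iigp1 it was 0.09 (-0.53 to 0.71), an interval that holds both no difference and sizeable ones in either direction. At 30 µg/d 0 of 10 genes had a called difference, against 0.00863%.

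**Figure D4:**
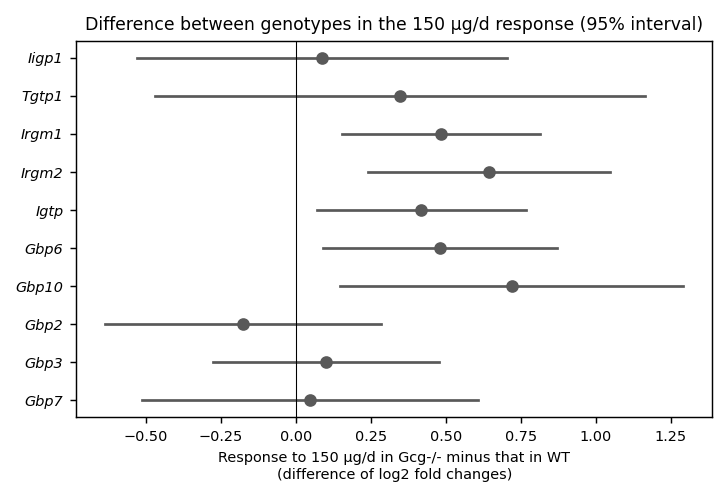
Response to 150 µg/d in Gcg-/- minus the response in WT for each gene (points, difference of log2 fold changes) with its 95% interval before adjustment for many genes; the vertical line is no difference. The intervals of Irgm1, Irgm2, Igtp, Gbp6 and Gbp10 lie above 0, and none passed after adjustment over all genes.

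All 11 Gcg-/- livers, at any dose, were below the lowest uninfused WT liver for Gbp6, Gbp10 and Irgm1, a pattern that 239 of 11590 genes (2.06%) showed. Some WT livers at 30 µg/d reached the uninfused WT range: 1 for Gbp6, 2 for Gbp10 and 1 for Irgm1 were at or above its lowest liver. In the order of group means, the mean of uninfused WT was highest for Gbp6, Gbp10, Irgm1, Irgm2, Igtp and Tgtp1, followed in each by WT at 30 µg/d, and for every gene each group's libraries overlapped those of the next group in the order. Uninfused Gcg-/- led for Iigp1 (117 ± 10.8 RPKM), and WT at 150 µg/d was its lowest group (63.4 ± 17.4 RPKM). For Gbp2, Gbp3 and Gbp7 group means spanned 2.08 to 2.58, 2.77 to 3.37 and 3.64 to 4.66 RPKM, and their groups overlapped in every comparison made.

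Among the other GTPases of these families, 14 of 16 listed genes passed the filter. No gene of this list was called in uninfused Gcg-/- against WT or in WT at 150 µg/d against none. Gm4951, an IRG relative of Iigp1 on the same chromosome, rose to 37.7 ± 6.76 RPKM in Gcg-/- livers at 150 µg/d, against 24.97 ± 5.76 RPKM in uninfused Gcg-/- livers (SD, n = 4 and 3; log2 fold change 0.58 ± 0.15, limma adjusted p = 0.0413), and was not called without libraries 4 and 13 (0.39, limma adjusted p = 0.189). Gbp11, a transcribed pseudogene of the chromosome 5 cluster, averaged 4.08 ± 1.78 RPKM in WT livers at 150 µg/d and 12.4 ± 9.53 RPKM in uninfused WT livers, a difference within its wide spread (limma adjusted p = 0.354). Ifi47 (Irgd), a further IRG GTPase that was listed with the type I interferon genes, averaged 7.55 ± 1.67 RPKM in Gcg-/- and 6.80 ± 2.58 RPKM in WT livers at 150 µg/d, against 12.6 ± 0.281 RPKM in uninfused Gcg-/- and 12.2 ± 2.18 RPKM in uninfused WT livers. It fell in the mean of both genotypes (-0.75 ± 0.16, limma adjusted p = 0.0125, and 0.0258 without libraries 4 and 13).

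The interferons themselves were at or near the detection limit. Of 17 interferon ligand genes, 14 were at 0 in all 22 libraries. Ifng, which encodes interferon gamma, was above 0 in 5 libraries with a highest value of 0.126 RPKM, near the 0.0560 to 0.0892 RPKM that 1 read gives on 1 kb, and Ifnk and Ifnz were above 0 in 1 library each. No ligand could be compared between groups.

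Of the receptor and kinase genes, 8 of 9 were tested. Ifngr1, the ligand-binding chain of the interferon gamma receptor, was the 1 called, and it was higher in Gcg-/-, where Gbp6 was lower: 10.2 ± 0.992 RPKM in uninfused Gcg-/- livers against 6.84 ± 0.0963 RPKM in uninfused WT livers (SD, n = 3 each; log2 fold change 0.51 ± 0.10, limma adjusted p = 0.0238). In Gcg-/- livers given 150 µg/d it fell to 7.73 ± 1.01 RPKM, against the 10.2 RPKM without infusion (-0.37 ± 0.10, limma adjusted p = 0.0478). Neither call remained without libraries 4 and 13 (0.45 and -0.31, limma adjusted p = 0.109 and 0.199). With all libraries, 1.54% and 2.72% of all genes were called in these comparisons. Ifnar1, a chain of the type I interferon receptor, was at 7.28 ± 0.0969 RPKM in uninfused Gcg-/- and 7.16 ± 0.741 RPKM in uninfused WT livers and was not called in any comparison.

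Of the transcription factors, 8 of 9 were tested, and Irf8, found in macrophages and dendritic cells, was the 1 called between uninfused genotypes, at 3.64 ± 0.536 RPKM in Gcg-/- and 2.40 ± 0.337 RPKM in WT livers (0.45 ± 0.11, limma adjusted p = 0.0409), and not without libraries 4 and 13 (0.35, limma adjusted p = 0.192). Over all genes 1.54% were called there with all libraries. Irf9, a DNA-binding factor of the type I interferon response, was at 8.88 ± 1.28 RPKM in uninfused Gcg-/- and 12.1 ± 0.342 RPKM in uninfused WT livers (-0.42 ± 0.11, limma adjusted p = 0.0681). Irf1, itself induced by interferon, was at 8.44 ± 2.10 RPKM in uninfused Gcg-/- livers and at 12.7 ± 1.15 RPKM in WT livers at 150 µg/d, against 12.9 ± 2.05 RPKM in uninfused WT livers (-0.57 ± 0.18 for uninfused Gcg-/- against WT, limma adjusted p = 0.102). In Irf9 and Irf1 the uninfused genotypes did not overlap, with Gcg-/- lower, and neither passed the test. Of all genes tested, 11.6% were apart in that direction.

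Other interferon-induced genes gave few calls. Of 35 type I interferon-stimulated genes, 0 were called by limma in any comparison between 2 groups, against 0% to 2.72% of all genes across those comparisons. In WT at 150 µg/d against none 26 of 35 had a fold change below 0, where the median over all genes was -0.02. There 8 of 35 did not overlap with infused lower, against 9.18% of all genes. Among the 8 was Ifit1, at 2.56 ± 0.380 RPKM infused against 4.33 ± 1.05 RPKM uninfused. In the mean of both genotypes Ifi47 and Ifi35 were called lower, 2 of 35 against 2.67% of all genes. Of 23 tested genes of antigen presentation and chemokines, 0 were called in uninfused Gcg-/- against WT, in either genotype at 150 µg/d against none or in the mean of both genotypes. Over all genes the shares called were 1.54%, 0.293% (WT), 2.72% (Gcg-/-) and 4.52%. The 7 tested inhibitors of the pathway gave 0 calls in the same comparisons. Of 16 autophagy and ubiquitin partners of the GTPases, Atg5, part of the conjugation system that brings IRG proteins to vacuoles, was called lower in the mean of both genotypes (-0.25 ± 0.07, limma adjusted p = 0.0374, or 0.0861 without libraries 4 and 13), and 0 in the others.

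In bulk liver, fewer cells of a type and less RNA per cell cannot be told apart. No marker of Kupffer cells, endothelium, stellate cells, cholangiocytes or blood leukocytes was called lower in uninfused Gcg-/- against WT or in WT at 150 µg/d against none. Only 0.751% and 0.207% of all genes were called lower there, so the absence of calls in short lists says little. The summed Kupffer cell markers (12 genes) were 351 to 373 RPKM in uninfused Gcg-/- livers and 274 to 402 RPKM in WT livers at 150 µg/d, against 235 to 318 RPKM in uninfused WT livers. The summed endothelial markers (12 genes) were 175 to 183 RPKM in uninfused Gcg-/- livers and 142 to 160 RPKM in WT livers at 150 µg/d, against 134 to 149 RPKM in uninfused WT livers. Of the 12, 5 were called higher in uninfused Gcg-/- than in uninfused WT (Lyve1, Cdh5, Pecam1, Stab2 and Tek), against 92 of all 11590 genes. None of these 5 was called without libraries 4 and 13 (limma adjusted p 0.0794 to 0.146). Other marker sums also stood higher in uninfused Gcg-/- than in uninfused WT livers without overlap: 128 to 130 against 92.5 to 103 RPKM for stellate cells (11 genes), 64.5 to 183 against 21.5 to 39.1 RPKM for cholangiocytes (6 genes) and 2.03 to 2.73 against 1.43 to 1.83 RPKM for dendritic cells (6 genes). The hepatocyte marker Ttr was called lower at 150 µg/d in the mean of both genotypes (-0.45 ± 0.11, limma adjusted p = 0.0268, or 0.0522 without libraries 4 and 13). Within Gcg-/- livers, where Iigp1 had its low values at 150 µg/d, the Kupffer sum was 227 to 399 RPKM at 150 µg/d and 351 to 373 RPKM without infusion, and the endothelial sum was 143 to 166 RPKM against 175 to 183 RPKM. Of the 12 endothelial markers, 3 were called lower there (Cdh5, Pecam1 and Tek), against 163 of all 11590 genes, and Tek alone without libraries 4 and 13. T and NK cell markers (12 genes in the table, 1 of them above the filter, none at 0 in every library of a group) summed to 2.33 to 5.04 RPKM in all 22 libraries. The part of cell makeup in these results was not tested.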

How the data were processed

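Strand-specific polyA libraries were made from frozen liver, per the labels' protocols. CASAVA 1.8.2, FastQC and GRCm38 are named in the submitters' processing notes; for aligner, counter and annotation the name is not given in the sources used here. The deposited values are RPKM computed by the authors for 24475 genes, 1 column per library; no count model was run, because only 62.7 to 68.6% of low values came out whole within 0.1 of a read (20% by chance). Groups came from titles in the labels.

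Genes with a mean of at least 0.5 RPKM (11590) were fitted with limma 3.58.1 in R 4.3.3 on log2(RPKM + 1), a pseudocount of 1, with all 6 groups in 1 fit, 12 contrasts, a trend of variance on mean, and p-values adjusted over all genes (Benjamini-Hochberg). The + 1 makes fold changes of the genes near 2 to 5 RPKM smaller than those of RPKM itself. SE values are moderated ones. The fit was tested on simulated data. The members and lists were chosen with earlier results of these data known; all 10 members are named, with list genes that were called and fixed pathway genes, of which the values of 1 are not reported here, while Gbp11, Ifit1 and the library values were picked from the values. Shared 50-base windows came from GENCODE M21 transcripts, names, positions and start windows from RefSeq (GRCm38.p6). Alternatives changed the pseudocount, filter, scaling, weights, the libraries in the fit and the summing of near-identical copies.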

Additional observations from a re-analysis of the deposited data

Results flagged for a closer look

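One value stood apart from its group: Iigp1 was at 115.845 RPKM in library 19, the highest of the 4 Gcg-/- livers given 150 µg/d, against 60.65 to 69.56 RPKM in the other 3. The gap to the next library was 0.839 of the group's range, where the 95% limit for 4 samples is 0.829. Of the 40 groups of 4 libraries checked over the 10 genes this was the 1 that passed, and chance flags about 1 in 20 such groups.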

How the results depend on the processing

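No paired analysis was possible because the libraries carry unique running numbers and no label pairs them. Of 53 fold changes of at least 0.2 on the log2 scale, followed through 1116 recalculations, 0 reversed, 62 lost a call and 10 gained one. Most of the 53 were not called to begin with and could not lose a call, so the 62 are not a share of the 1116. For uninfused Gcg-/- against WT, where 1 of 10 genes was called, 0 were called with a pseudocount of 0.1 or 0.5, without the filter, with 1 common RPKM sum, with the contrast's groups alone, without libraries 4 and 13 or with near-identical copies summed; 5 were called with array weights; leaving out 1 library gave 0 to 0. For 150 µg/d against none in WT, where 3 were called, 0 were called with a pseudocount of 0.1 or with the contrast's groups alone, 1 (Gbp10) without the filter, with 1 common RPKM sum or without libraries 4 and 13, and 5 with array weights; leaving out 1 library gave 0 to 2. In Gcg-/- at 150 µg/d against none, 1 (Iigp1) was called with array weights and 0 to 1 when 1 library was left out. For 150 against 30 µg/d in WT, 2 were called with array weights. Array weights also raised the calls over all genes in these comparisons. In the order given, they went from 179 to 945, 34 to 438, 315 to 770 and 1 to 12 of 11590. In the mean of both genotypes, where 4 were called, leaving out 1 library gave 2 to 4, the 2 (Gbp10 and Iigp1) without library 2, 3 or 5. The other comparisons kept 0 calls under every alternative. The cause of these shifts was not tested. Limits are 3 to 4 libraries per group, no counts, and Gbp6, Gbp10 and Tgtp1 sharing reads with near copies.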

Other observations

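With group means removed, the 10 genes varied together only weakly from library to library: over their 45 pairs Pearson's r across the 22 libraries ran from -0.21 to 0.69 with a median of 0.16, and 35 were above 0. The highest was that of Gbp7 and Iigp1. The points share library and depth, and these are descriptions. The genes whose library-to-library deviations were most like the mean of the 10 were Gtpbp8 (r = 0.82), Fbxo18 (0.80), Nol10 (0.79) and Dusp22 (0.78), followed by Fbxw2, Phax, Vipas39 and Ppig (0.76 to 0.77), of 9960 genes compared over 22 libraries; none is on an interferon list.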
